A study of Mus musculus with 21 samples.

Results

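The comparison was between RAW 264.7 cells given 1000 µg/ml of 500 nm amorphous silica for 2 h and the same cells given 500 µg/ml, which is the top doubling of the dose of these particles. RAW 264.7 is an established macrophage-like mouse cell line. The members were all 22626 probe sets of the array that were not controls, of 22690 in all, read on the 3 arrays of each dose, 6 of the 21 arrays of the series. The other groups used were untreated cells, cells given 250 µg/ml of 500 nm silica, and cells given 10 nm silica at 20 or 50 µg/ml, each with 3 arrays. All exposures were in serum-free medium, and whether untreated cells were moved to that medium is not stated. Whether the 3 arrays of a group came from separate cultures is not stated, and the p-values therefore measure spread among arrays that may be technical. Levels are log2 values of the deposited signal, on which a difference of 1 is 2-fold, and are compared within a probe set only. A probe set was called where the adjusted p from limma was under 0.05.

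Macrophages take up particles by phagocytosis, and silica is known to disturb their lysosomes and to provoke inflammatory signalling. Within hours such signals switch on immediate early genes and then chemokine and cytokine genes, largely through MAP kinases and the NF-kB family of transcription factors. Both pathways also induce their own inhibitors. A response can reach its ceiling at a moderate dose, go on growing with dose, or appear only at a high dose.

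The promoters of 4 genes on which the results below turn are shown, as the 250 bases before the transcription start, read 5′ to 3′ on the gene's strand from RefSeq (GRCm38.p6). Capitals mark a kappaB motif (2 overlapping matches each) in Cxcl2, chr5:90903649-90903898 on the plus strand, and in Rel, chr11:23770970-23771219 on the minus strand. They mark a CRE, TGACGTCA, in Dusp1, chr17:26508473-26508722 on the minus strand, and an AP-1 motif, TGANTCA, in Olr1, chr6:129507166-129507415 on the minus strand.
Cxcl2: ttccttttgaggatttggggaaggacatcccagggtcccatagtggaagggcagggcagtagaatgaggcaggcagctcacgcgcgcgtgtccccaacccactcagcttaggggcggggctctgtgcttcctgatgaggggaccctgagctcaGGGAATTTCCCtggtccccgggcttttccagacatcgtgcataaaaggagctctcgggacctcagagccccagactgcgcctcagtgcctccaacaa
Rel: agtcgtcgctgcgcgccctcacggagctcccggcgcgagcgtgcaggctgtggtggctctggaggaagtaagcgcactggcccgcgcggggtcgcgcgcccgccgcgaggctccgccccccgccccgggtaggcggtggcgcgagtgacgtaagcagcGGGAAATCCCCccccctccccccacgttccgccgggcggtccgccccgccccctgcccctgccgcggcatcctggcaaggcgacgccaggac
Dusp1: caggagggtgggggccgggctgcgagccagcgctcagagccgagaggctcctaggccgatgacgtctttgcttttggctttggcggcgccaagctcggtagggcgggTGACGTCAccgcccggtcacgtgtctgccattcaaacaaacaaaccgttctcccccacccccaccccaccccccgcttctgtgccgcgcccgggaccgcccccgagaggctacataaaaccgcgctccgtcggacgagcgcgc
Olr1: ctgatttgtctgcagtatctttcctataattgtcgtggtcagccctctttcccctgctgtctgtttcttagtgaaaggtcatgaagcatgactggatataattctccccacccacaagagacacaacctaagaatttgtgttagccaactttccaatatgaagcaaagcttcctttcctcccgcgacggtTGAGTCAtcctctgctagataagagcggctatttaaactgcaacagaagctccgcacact
Both strands were searched for these motifs and for the CArG box of serum response factor, and the CRE and AP-1 letters cannot overlap. Of all 32851 promoter windows of this length, 3.9% held a kappaB motif, 1.55% the CRE, 6.75% the AP-1 motif and 1.47% a CArG box. Of the 12 genes with the largest rises at the step, 11 had a promoter entry. Among these, 2 held a kappaB motif (Cxcl2 and Rel), 2 a CRE (Dusp1 and Rcan1), 3 an AP-1 motif (Il1rn, Hilpda and Rcan1) and 0 a CArG box. A gene was counted if any of its windows held the motif, and a gene can have several windows. The percentages above are per window, so the units differ. Of the 12 genes with the largest falls, 11 had an entry, and 1 of them, Igf1, held an AP-1 motif while none held the other motifs. A match is a description of these letters, not a site in use.

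From 500 to 1000 µg/ml, 386 probe sets were called, with Gadd45b, Pim1, H1f2 and Acod1 at the head of the rises and Qser1, Sesn1, Fam13c and Igf1 at the head of the falls. Of these 120 were higher at 1000 µg/ml (0.53% of the 22626 tested) and 266 were lower (1.18%), with 25 of the rises and 12 of the falls at least 2-fold. They covered 99 and 238 distinct genes. The median step of all probe sets was 0.018, and 2453 had an unadjusted p under 0.05. In all 386 the 3 arrays of one dose lay beyond the 3 of the other, as did those of 16.6% of all probe sets. The excess of falls depended on the scaling of the arrays. Falls made up 68.91% of the calls on the values as deposited and 52.65% after quantile normalization (170 higher, 189 lower). They made up 53.18% with each array centred on its median (147 and 167), and 44.11% when arrays were also scaled to 1 SD (185 and 146). A fit to the 6 arrays compared, with fewer arrays behind the spread, called 29 rises and 19 falls, so that falls were 39.58%. Of the 12 leading rises it did not call Rel, Hilpda and Phlda1, and of the 12 leading falls Qser1, Igf1, Arhgap5 and Il13ra1. Counts fell when an array was left out. Without 500 µg/ml replicate 1, 2 or 3 they were 69 higher and 110 lower, 87 and 101, or 57 and 88. Without 1000 µg/ml replicate 1, 2 or 3 they were 62 and 133, 109 and 180, or 78 and 78.

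The SD of the log2 values on an array ran from 2.57 to 2.67 at 500 and from 2.503 to 2.627 at 1000 µg/ml. The lowest value at each dose was that of replicate 3, as in every other group of the series. Probe sets at the 3 prime ends of control transcripts exceeded those at the 5 prime ends, a gap that widens in degraded RNA, by 0.257 ± 0.103 at 500 and 0.307 ± 0.202 at 1000 µg/ml (SD, n = 3 each). The gap was 0.532 in replicate 3 at 1000 µg/ml and 1.15 in untreated replicate 3, the highest in each group, and its part in the results was not tested. Correlations across probe sets, which are not independent replicates, were 0.985 to 0.997 within the doses and 0.981 to 0.996 between them. All 10 macrophage markers were measured, and their mean level per array was 10.27 to 10.49 at 500 and 10.13 to 10.38 at 1000 µg/ml. Of these 10, only Mpeg1 was called, lower by -0.39 (limma adjusted p = 0.0333). No measured marker of neutrophils (5 of 6), T cells (5 of 6), B cells (4 of 5), fibroblasts (5 of 5) or epithelial cells (5 of 5) was called, and their mean levels per array lay between 3.72 and 4.68. Of 4 measured osteoclast markers 1 was called, Acp5, an acid phosphatase that macrophages also make, at 0.62 higher (adjusted p = 0.0299).

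The largest rise was that of Gadd45b, a stress-induced regulator of MAP kinase signalling. Its arrays read 8.61, 8.65 and 8.64 at 500 µg/ml and 10.00, 10.12 and 10.28 at 1000 µg/ml, against 6.49 to 6.93 in untreated cells. All 3 arrays at the top dose were thus above every array at the other doses, a step of 1.50 ± 0.12 on the log2 scale, or 2.83-fold (SE; limma adjusted p = 1.21e-06). H1f2, a linker histone, read 9.12, 9.20 and 9.17 at 500 and 10.57, 10.53 and 10.60 at 1000 µg/ml, a step of 1.40 ± 0.11 (adjusted p = 1.21e-06). In untreated cells and at 250 µg/ml its 6 arrays lay between 7.81 and 8.16, so that it rose at each of the top doublings and was not called at the lowest dose. Acod1, which makes the antimicrobial metabolite itaconate, had the same course. It read 8.62, 8.68 and 8.55 at 500 and 10.00, 10.10 and 9.90 at 1000 µg/ml, against 7.43 to 7.80 below (step 1.38 ± 0.10, adjusted p = 5.93e-07).

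Cxcl2, which encodes a neutrophil-attracting chemokine, had the largest change against untreated cells of the leading rises. Its arrays read 11.70, 11.80 and 11.68 at 500 µg/ml and 12.89, 12.95 and 12.98 at 1000 µg/ml, a step of 1.21 ± 0.13 (limma adjusted p = 4.39e-05). The step came on top of a change of 4.78 at 500 µg/ml against untreated cells. Dusp1, a phosphatase that switches off MAP kinases, read 10.07, 10.03 and 9.98 at 500 and 11.36, 11.25 and 11.13 at 1000 µg/ml (step 1.22 ± 0.09, adjusted p = 1.02e-06). Rel, an NF-kB subunit, read 7.57, 7.78 and 7.32 at 500 and 8.93, 8.97 and 8.53 at 1000 µg/ml (step 1.25 ± 0.15, adjusted p = 1.80e-04). Replicate 3 was the lowest array at both doses. Il1rn, the secreted antagonist of the interleukin 1 receptor, read 7.19, 7.19 and 7.16 and then 8.55, 8.42 and 8.29 (step 1.24 ± 0.13, adjusted p = 6.03e-05). The step of all 7 genes named so far remained called without any 1 of the 6 arrays.

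The other leading rises were those of Pim1, a survival kinase (1.41 ± 0.24), Rcan1, an inhibitor of calcineurin (1.34 ± 0.18), and Hilpda, a lipid droplet protein (1.20 ± 0.26). They were followed by Dusp2, another MAP kinase phosphatase (1.16 ± 0.17), and Phlda1 (1.15 ± 0.21, log2 step ± SE). Limma's adjusted p ran from 4.18e-04 for Rcan1 to 0.0219 for Hilpda. The call of Hilpda ended without 500 µg/ml replicate 1 or 3 or 1000 µg/ml replicate 1 or 2 (adjusted p from 0.084 to 0.0978), and that of Phlda1 without 1000 µg/ml replicate 3 (0.0515). Of the 120 probe sets that rose, 117 were also called higher at 1000 µg/ml than in untreated cells (background 4.46%). At 500 µg/ml 69 were already called higher than in untreated cells (background 0.99%), and at 250 µg/ml 19 were (background 0.27%). These comparisons share arrays with the step.

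The falls were led by Qser1 and by Sesn1, a stress-induced sestrin that restrains mTORC1. Qser1 read 5.65, 5.60 and 6.08 at 500 and 4.27, 4.21 and 4.73 at 1000 µg/ml (log2 step -1.38 ± 0.19 SE, limma adjusted p = 7.60e-04). Its other probe sets were not called, at -0.26 and -0.55, and at 1000 µg/ml its mean level, 4.40, lay in the range of the array means of the other cell types’ markers, 3.72 to 4.68, so the size of the step is uncertain. Sesn1 read 7.84, 7.96 and 8.20 at 500 and 6.52, 6.84 and 6.74 at 1000 µg/ml, from 8.72 to 9.42 in untreated cells (step -1.30 ± 0.18, adjusted p = 7.60e-04). No array of one dose overlapped the other dose in either gene. A second Sesn1 probe set, the one with the highest level, fell by 0.60 (adjusted p = 0.0382, lost without any 1 of the 6 arrays), and another fell by 0.94. Calhm2, a member of the calcium homeostasis modulator family, read 7.32, 7.20 and 7.34 and then 6.19, 6.17 and 6.04 (step -1.15 ± 0.12, adjusted p = 3.04e-05). Rin2, which activates the endosomal GTPase Rab5, fell by 1.14 ± 0.13 (adjusted p = 1.25e-04). Cysltr1, the receptor for cysteinyl leukotrienes, read 6.81, 6.69 and 6.96 at 500 and 5.72, 5.74 and 5.62 at 1000 µg/ml (step -1.13 ± 0.18, adjusted p = 0.00322). At 500 µg/ml Cysltr1 lay within the spread of untreated cells, whose arrays ran from 6.46 to 7.32. Dnajc3, a chaperone of the endoplasmic reticulum, fell by 1.06 ± 0.12 (adjusted p = 1.06e-04). The brightest Dnajc3 probe set was not called, at -0.26 (0.724), and 1 of the other 3 was, at -0.75 (0.038). The calls of these 6 genes, each at its largest step, remained without any 1 of the 6 arrays.

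The other 6 of the 12 leading falls were Fam13c, Igf1, Arhgap5, Nrp1, Calcrl and Il13ra1. Fam13c fell by 1.20 ± 0.18 (limma adjusted p = 0.00188), a call that remained without any 1 array. Igf1, a growth factor that macrophages secrete, read 8.43, 7.94 and 8.55 at 500 and 7.32, 6.91 and 7.16 at 1000 µg/ml (step -1.17 ± 0.27, adjusted p = 0.0301). The call of Igf1 ended without any 1 of 5 arrays, 500 µg/ml replicate 1 or 3 or any 1000 µg/ml replicate (adjusted p from 0.0612 to 0.148). Its other probe sets were not called, at -0.30 and -0.21. Arhgap5 stood at -1.16 ± 0.28 (adjusted p = 0.0382), and Nrp1, a semaphorin and VEGF co-receptor, at -1.05 ± 0.25 (0.0382). Calcrl, a receptor for calcitonin gene-related peptide, stood at -1.10 ± 0.23 (0.0164), and Il13ra1, a chain of the interleukin 13 receptor, at -1.05 ± 0.21 (0.0151). Other probe sets of Arhgap5, Nrp1, Calcrl and Il13ra1 were not called, with steps between -0.61 and -0.14, and the level of Arhgap5 at 1000 µg/ml, 4.41, was as low as that of Qser1. Leaving out 1 array ended the calls of Arhgap5 (except 1000 µg/ml replicate 2; adjusted p up to 0.179) and of Nrp1 (any array; up to 0.165). That of Calcrl ended without 500 µg/ml replicate 1 or 3 or 1000 µg/ml replicate 2 or 3 (up to 0.0934). That of Il13ra1 ended without 500 µg/ml replicate 1 or 2 or 1000 µg/ml replicate 3 (up to 0.0992). Of the 266 probe sets that fell, 262 were called lower at 1000 µg/ml than in untreated cells (background 9.86%). At 500 µg/ml 77 were called lower (background 1.51%), 1 was called higher and 188 were not called. At 250 µg/ml 2 were called lower (background 0.0663%).

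**Figure D1:**
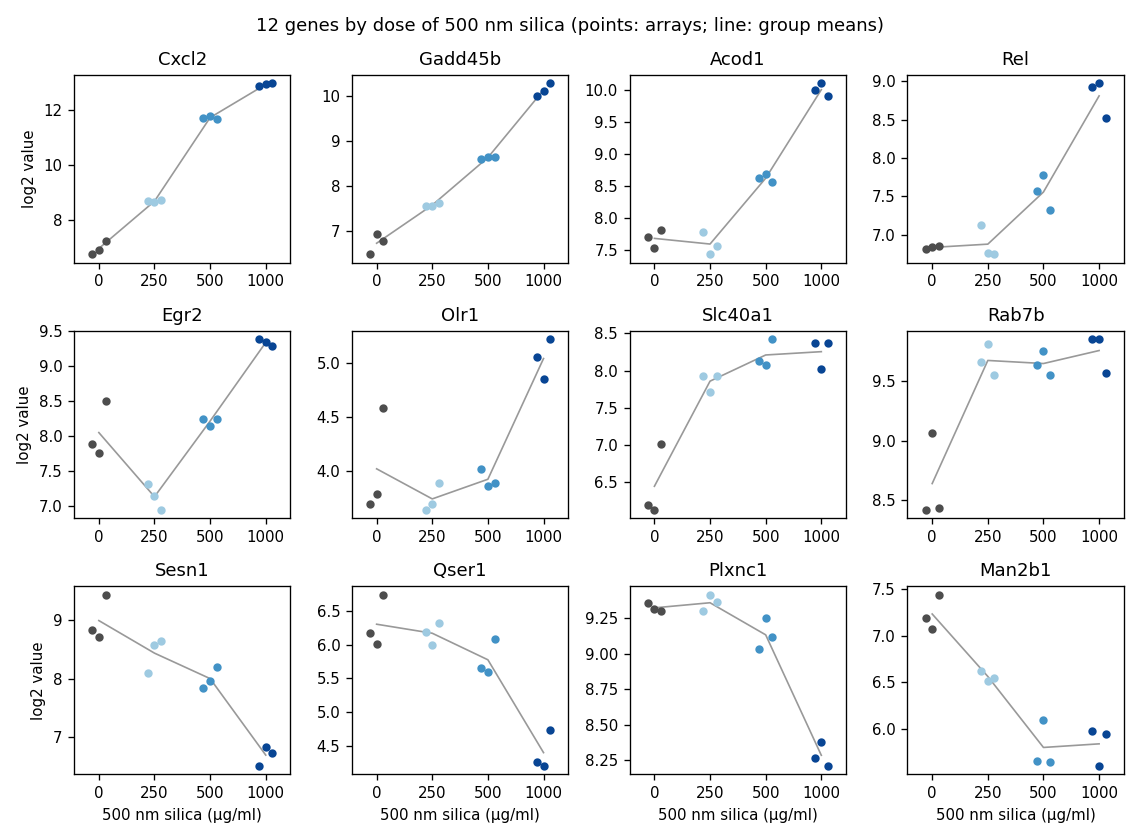
Level (log2) of 12 genes against the dose of 500 nm silica (0 is untreated cells; doses evenly spaced); each point is 1 array, 3 a dose, and the line joins group means. Cxcl2, Gadd45b, Acod1 and Rel stood higher at 1000 than at 500 µg/ml on every array, Slc40a1 and Rab7b did not, and Plxnc1 fell mainly at the top dose.

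To ask which responses were saturated, responders were taken from the mean of 500 and 1000 µg/ml against untreated cells, a contrast that is independent of the step between those doses. A responder was called there and changed at least 2-fold. There were 142 higher (0.628% of probe sets) and 101 lower (0.446%). Of the 142 higher responders, 63 grew further at the step, with a called rise, and 138 had a step of the same sign as the response. The median step was 0.64, following a median rise of 0.64 from 250 to 500 µg/ml. Their median change against untreated cells was 0.48 at 250, 1.04 at 500 and 1.69 at 1000 µg/ml. Of the 101 lower responders, 45 fell further and 98 had a step of the same sign, with a median step of -0.61. The medians against untreated cells were -0.43, -0.86 and -1.49. The counts depended on the processing. After quantile normalization, centring and scaling to 1 SD, 79, 72 and 83 higher and 26, 25 and 23 lower responders grew. A fit to only the groups compared gave 27 and 5. Leaving out 1 of 9 arrays gave 136 to 156 higher and 70 to 167 lower responders. No responder in either direction moved back with a called step (2453 probe sets in all had an unadjusted p under 0.05 at the step).

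Among the growing responders with a single gene symbol, Cxcl2, Dusp1 and Atf3 had the largest rises in the mean of both doses. Atf3, a stress-induced transcription factor, had the smallest step of the 3 and read 11.83, 11.87 and 11.60 at 500 and 12.31, 12.47 and 12.13 at 1000 µg/ml (step 0.54 ± 0.11 SE, limma adjusted p = 0.0148). Without 500 µg/ml replicate 3 or 1000 µg/ml replicate 1 or 2 this call ended (adjusted p from 0.06 to 0.0991). Maff, a small MAF transcription factor, rose by 1.12 ± 0.15 (adjusted p = 5.71e-04) and Ccl4, a chemokine for monocytes and T cells, by 1.03 ± 0.12 (1.30e-04). Both had already changed by over 2 at 500 µg/ml, at 2.23 and 2.19. On the lower side the leading genes were Agfg2 (-0.93 ± 0.17, adjusted p = 0.00892), Nisch (-0.91 ± 0.15, 0.00326) and Akr1b10, an aldo-keto reductase (-0.64 ± 0.13, 0.0193). They were followed by Abca1, the exporter of cholesterol (-0.91 ± 0.23, 0.0468), Sesn1, and Ptpro, a receptor-type tyrosine phosphatase (-0.69 ± 0.14, 0.0148). The call of Abca1 ended without any 1 of the 6 arrays and after each of the 3 rescalings (adjusted p up to 0.191), and a dim second probe set pointed the other way at 0.09. Leaving out 1 array also ended the calls of Agfg2 (500 µg/ml replicate 3; 0.0531), Akr1b10 and Ptpro (replicate 2 or 3 of either dose; up to 0.0935 and 0.0796). Other probe sets of Agfg2 (-0.52), Nisch (-0.25, -0.24 and -0.06), Akr1b10 (-0.01) and Ptpro (-0.44) were not called. The Nisch probe set at -0.24 was its brightest. At 1000 µg/ml the level of Akr1b10, 4.41, was as low as those of Qser1 and Arhgap5.

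A step was taken as bounded where it was not called and its 95% interval lay within 0.5 of zero on the log2 scale. This held for 7 higher and 2 lower responders, whose further change at the step, if any, was small. Gpr137b, a lysosomal membrane protein, read 9.17, 9.06 and 9.10 at 500 and 9.22, 9.01 and 9.12 at 1000 µg/ml, against 7.99 to 8.17 in untreated cells. Its step was 0.00 (95% interval -0.21 to 0.22), and at 250 µg/ml it already stood 0.97 above untreated cells. Rab7b, a GTPase of late endosomes, read 9.64, 9.75 and 9.55 at 500 and 9.85, 9.85 and 9.56 at 1000 µg/ml (step 0.11, -0.20 to 0.41). It too was at its level at 250 µg/ml, where its arrays read 9.66, 9.81 and 9.55. Slc40a1, the iron exporter ferroportin, read 8.13, 8.07 and 8.42 at 500 and 8.37, 8.02 and 8.38 at 1000 µg/ml, from 6.12 to 7.01 untreated (step 0.04, -0.39 to 0.48). Pmp22, a membrane protein of myelin, changed by 0.97, 1.21 and 1.36 against untreated cells at the rising doses (step 0.15, -0.12 to 0.42). Ddit4, a stress-induced inhibitor of mTORC1, differed from these in that it rose by 0.85 from 250 to 500 µg/ml (limma adjusted p = 0.0016) before its bounded step of 0.17 (-0.09 to 0.43). A second Slc40a1 probe set stood 1.82 above untreated cells at 1000 µg/ml. Its step of 0.29 ± 0.19 (SE) was not called and does not meet the bound. Other Gpr137b probe sets had steps of -0.22, 0.22 and -0.40, none of them called. The one at -0.40 stood -0.09 from untreated cells at 1000 µg/ml. The remaining 2 higher probe sets carry no single gene symbol in the annotation.

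The lower responders with a bounded step were Man2b1 and Nisch. Man2b1, a lysosomal mannosidase, read 5.66, 6.10 and 5.64 at 500 and 5.97, 5.60 and 5.94 at 1000 µg/ml, against 7.07 to 7.44 untreated (step 0.04, -0.25 to 0.32). A brighter Man2b1 probe set had a step of the opposite sign, at -0.24. The bounded probe set of Nisch had a step of -0.25 (-0.46 to -0.05), an interval that excludes zero in the direction of the response, and another of the same gene was among the growing falls above. Most other responders could not be placed. For 126 of them the step was neither called nor bounded, and their 95% intervals had a median half-width of 0.425. Of these, 120 had a step of the same sign as the response. With the bound widened to 1, 50 higher and 37 lower responders had a bounded step.

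In 7 responder probe sets the step ran against the response, none with a called step, and these are named after their values were seen. They include the Man2b1 and Gpr137b probe sets given above with steps of 0.04 and -0.22. Cxcr4, a chemokine receptor, changed by 1.81, 2.16 and 1.65 against untreated cells at 250, 500 and 1000 µg/ml (step -0.51, 95% interval -0.85 to -0.16, limma adjusted p = 0.176). Tent5c, a poly(A) polymerase, changed by 1.79, 2.12 and 1.72 (step -0.40, -0.75 to -0.05, adjusted p = 0.347). In both genes the 3 arrays at 1000 µg/ml lay below the 3 at 500 µg/ml. Klf4, a zinc finger transcription factor, stood at -1.10, -1.15 and -0.97, and 1 probe set of Pde4b, which breaks down cyclic AMP, at -1.64, -1.53 and -1.37. A probe set of Jun changed by 1.43, 1.99 and 1.83. In these 3 genes the arrays of both doses overlapped.

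**Figure D2:**
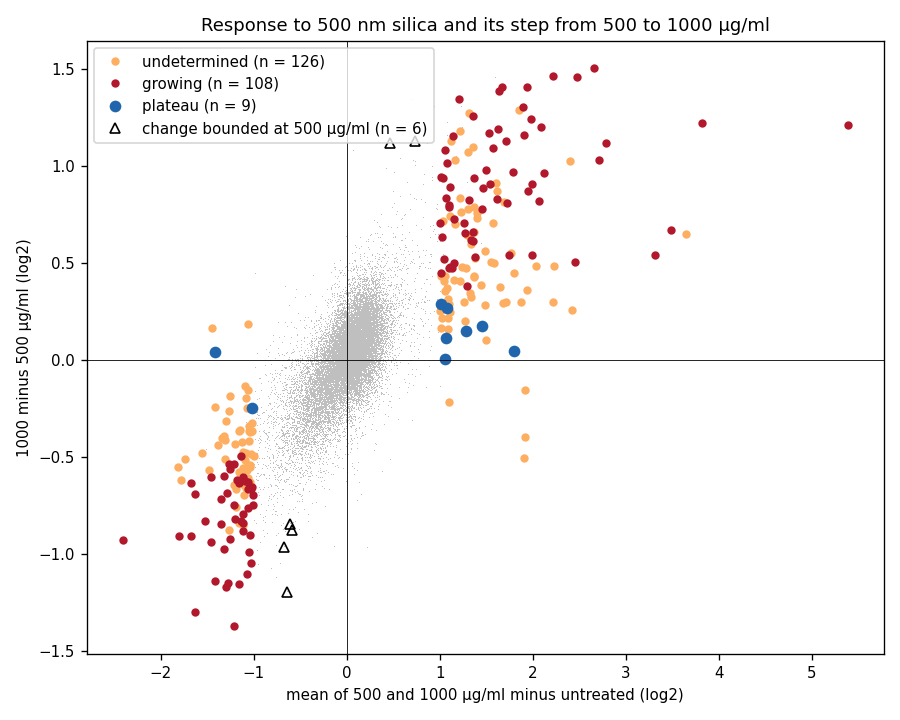
Each point is a probe set; the horizontal axis is the mean of 500 and 1000 µg/ml minus untreated cells and the vertical axis 1000 minus 500 µg/ml (both log2; grey, all others). Of the responders, 108 grew (red), 9 had a bounded step (blue) and 126 could not be placed (orange); triangles are the 6 probe sets with a change bounded at 500 µg/ml.

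Responses that appeared at 1000 µg/ml and were bounded at 500 µg/ml were few. The criteria were a called change of at least 2-fold against untreated cells, a called step of the same sign, and a 95% interval of the change at 500 µg/ml within 0.5 of zero. Since the 500 µg/ml arrays enter all but the first, the result is a description. It found 2 probe sets that were higher and 4 that were lower. Egr2, an immediate early transcription factor, read 7.89, 7.76 and 8.50 untreated, 8.25, 8.14 and 8.25 at 500 µg/ml and 9.39, 9.35 and 9.28 at 1000 µg/ml. At 250 µg/ml it lay below untreated cells, at 7.30, 7.14 and 6.94 (change -0.92, limma adjusted p = 0.00515), so that its rise from 250 to 500 µg/ml (1.09 ± 0.15) brought it back to the untreated level. A second Egr2 probe set did not meet the criteria. Its step was 0.83 (adjusted p = 0.0239), and at 1000 µg/ml it stood 1.13 above untreated cells. Olr1, a scavenger receptor for oxidised lipoprotein, read 4.02, 3.86 and 3.89 at 500 and 5.05, 4.85 and 5.22 at 1000 µg/ml (step 1.12 ± 0.19, adjusted p = 0.00361). All of these are below the median level of all probe sets, 6.21, and untreated replicate 3 read 4.58 where replicates 1 and 2 read 3.69 and 3.79.

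The falls seen in this way were those of Plxnc1, Clcc1 and Fam13c, the last with 2 probe sets. Plxnc1, a semaphorin receptor, read 9.35, 9.31 and 9.30 untreated, 9.03, 9.25 and 9.12 at 500 and 8.26, 8.38 and 8.21 at 1000 µg/ml (step -0.85 ± 0.10 SE, limma adjusted p = 1.08e-04). Clcc1, a chloride channel of the endoplasmic reticulum, read 8.69, 8.60 and 8.75 and then 7.71, 7.95 and 7.74 (step -0.88 ± 0.15, adjusted p = 0.00361). Fam13c read 6.77, 6.88 and 7.08 and then 5.78, 5.56 and 5.79. Other Clcc1 probe sets did not meet the criteria. Their steps were -0.61 (adjusted p = 0.0112), -0.36, -0.22 and -0.17, the last 3 not called. Those at -0.36 and -0.17 stood -0.80 and -0.85 from untreated cells at 1000 µg/ml, so the step was only a part of their fall. Other Plxnc1 probe sets did not meet the criteria either. Their steps were -0.54 (adjusted p = 0.00995), -0.55 and -0.70, the last 2 not called. The Plxnc1 probe set at -0.70 stood only -0.20 from untreated cells at 1000 µg/ml. At 500 µg/ml the means of the leading Plxnc1, Clcc1 and Fam13c probe sets stood -0.19, -0.14 and -0.05 from untreated cells. Their arrays overlapped in Clcc1 and Fam13c but not in Plxnc1. At 1000 µg/ml none overlapped untreated cells. The steps of these 3 genes and of Egr2 and Olr1 remained called without any 1 of the 6 arrays and after the 3 rescalings. Membership was less stable than the steps: leaving out 1 of 9 arrays gave 0 to 3 higher and 1 to 6 lower probe sets, and quantile normalization gave 0 and 2. With the bound at 500 µg/ml widened to 1, there were 28 and 84.

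The gene lists were read with 1 probe set a gene, for which 0.678% of all 12393 genes were called higher and 1.15% lower at the step, with a median of 0.027. Immediate early genes, which encode the first transcription factors and feedback regulators of a signal, held the most rises. Of 31 measured, 12 rose and 0 fell, with a median step of 0.54. Besides Gadd45b, Dusp1, Dusp2, Maff, Egr2 and Atf3, they were Junb (1.02), Ier3 (0.91), Nr4a1 (0.90), Plk3 (0.87), Fosl1 (0.78) and Egr1 (0.70, log2 step), all named because they make up the count. Jun, a subunit of the AP-1 factor, was not called, at 0.26 for the probe set used, and another had a step of -0.16. Against untreated cells 17 of the 31 were already higher at 500 µg/ml (background 1.22%) and 26 at 1000 µg/ml (background 4.97%). Without 1 array the count of rises was 7 to 10. It was 8 without 500 µg/ml replicate 1 or 3 or 1000 µg/ml replicate 2, and 7 without 1000 µg/ml replicate 1. In the fit to the 6 arrays compared, list members called were 7 immediate early genes, 3 cytokines, 1 NF-kB gene and 1 phagocytic receptor, all rises, and 1 rise and 1 fall in the G protein list. That fit called no member of the other lists below.

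Of 28 inflammatory cytokines and chemokines, 6 rose and 0 fell (median step 0.30). They were Cxcl2, Ccl4, Il1rn (here a brighter probe set, 1.19, adjusted p = 0.0497, lost without any but 1000 µg/ml replicate 3), Csf1, the macrophage growth factor (1.08), Tnf, the main early inflammatory cytokine (0.96), and Csf3, the granulocyte growth factor (0.60). Csf1 arrays read 6.91, 6.42 and 6.70 at 500 and 7.66, 7.65 and 7.96 at 1000 µg/ml (limma adjusted p = 2.33e-04). Another Csf1 probe set was called at 0.81 (adjusted p = 0.0151), while those at 0.25 and 0.12 were not called. Of the 28, 6 were higher than in untreated cells at 500 and 13 at 1000 µg/ml. Without 1 array 4 to 6 rose, with 4 left without 500 µg/ml replicate 1 or 2 or 1000 µg/ml replicate 1. Of 21 NF-kB subunits and feedback genes, 3 rose and 0 fell (median 0.28). These were Rel, Traf1, a signalling adaptor (0.93 ± 0.17 SE, adjusted p = 0.00667), and Nfkbib, an inhibitor of NF-kB (0.52 ± 0.10, 0.00995). The call of Nfkbib ended without 500 µg/ml replicate 1 (0.0613). Ptgs2, the inducible prostaglandin synthase, changed by 1.17 at 500 and 1.37 at 1000 µg/ml and its step of 0.20 was not called.

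In the sterol synthesis list no step was called, although the list responded to the particles. Of 18 measured enzymes and regulators, 8 were higher than in untreated cells at 500 and 12 at 1000 µg/ml, with median changes of 0.45 and 0.70. The median step was 0.16, and 0 rose and 0 fell, where 0.678% of all genes rose and 1.15% fell. With so few members a count of 0 does not show that the list was saturated. The 3 rescalings gave 0 to 1 rises and array weights 6. Cyp51, which demethylates lanosterol, changed by 0.71 at 500 and 0.84 at 1000 µg/ml. Idi1, an isomerase of the isoprenoid branch, changed by 0.45 and 0.51, with a step of 0.06 (95% interval -0.14 to 0.26). Pmvk, a mevalonate pathway kinase, had the smallest p of the list (step 0.38, limma adjusted p = 0.176). Of the 12 members called higher in the mean of both doses (background 3.1%), 7 had a step bounded within 0.5. Among all 1300 genes called there in either direction, 492 had a bounded step. Of all 12393 genes, 7565 had a step interval within 0.5 of zero. In the opposing list of LXR targets and cholesterol efflux, 3 of 16 fell (median -0.10). They were Abca1, Npc1, which moves cholesterol out of lysosomes (-0.41), and Scd2, a fatty acid desaturase (-0.34). Without 1000 µg/ml replicate 1 the count was 1, and without any other 1 of the 6 arrays it was 0; after the 3 rescalings it was 0 to 1.

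Of 35 genes of the integrated stress response and unfolded protein response, 11 were higher than in untreated cells at 500 µg/ml and 15 at 1000 µg/ml. At 1000 µg/ml 2 of the 35 were called lower, as were 1204 of all 12393 genes. At the step 2 of the 35 rose (background 0.678%). These were Ppp1r15a, which restarts translation (0.82 ± 0.19 SE, limma adjusted p = 0.036), and Ddit3, the transcription factor CHOP (0.54 ± 0.12, 0.0223). Both calls were lost on leaving out arrays, Ppp1r15a without any 1 of the 6 (0.0565 to 0.148) and Ddit3 without any but 1000 µg/ml replicate 3 (0.0721 to 0.0948). The 3 rescalings gave 3 to 4 rises in this list. Chac1, which degrades glutathione, changed by 0.88 at 500 and 0.94 at 1000 µg/ml. Of 19 NRF2 antioxidant genes, 2 rose: Slc7a11, the cystine importer (0.80 ± 0.13, 0.003), and Srxn1, which repairs peroxiredoxins (0.66 ± 0.13, 0.0115). Srxn1 lost its call without 500 µg/ml replicate 3 or 1000 µg/ml replicate 1 or 2 (up to 0.0796). Its other probe sets, at 0.30, 0.66 and 0.78, were not called. Hmox1, heme oxygenase, was not called, with a step of 0.30. Of 9 metal response genes 1 rose, the zinc exporter Slc30a1 (0.64), with a call lost without any 1 of the 6 arrays. Of 18 heat shock genes 0 were called in either direction (smallest p for Ahsa1, step 0.25, adjusted p = 0.502). Scaling to 1 SD gave 1 rise, and array weights 2 rises and 3 falls.

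Among 21 p53 and DNA damage genes, 3 rose and 1 fell (median 0.11). Cdkn1a, an inhibitor of cell cycle kinases, rose by 0.54 ± 0.09 (SE; limma adjusted p = 0.00455), Mdm2, which degrades p53, by 0.50 ± 0.09 (0.00792) and Bbc3, a killer of the BCL2 family, by 0.49 ± 0.12 (0.048), while Sesn1 fell. Other probe sets of Cdkn1a (0.60 ± 0.42) and Mdm2 (0.73 ± 0.38) were not called. Without 1 array 1 to 3 rose and 0 fell, with 1 left without 500 µg/ml replicate 3 and 2 without 500 µg/ml replicate 1 or any 1000 µg/ml replicate. Hypoxia, glycolysis and lipid droplet genes had 2 rises of 21, Hilpda, which the omission of arrays affected as above, and Ndrg1 (0.83 ± 0.11), and growth factors, proteases and matrix genes 1 of 24, Hbegf, a ligand of the EGF receptor (1.13 ± 0.19). Actin and SRF targets had 3 of 23, Egr1, Rhoc (0.61), and Arc (0.56, a call lost without any 1 array). The count was 2 without 1000 µg/ml replicate 2 and 1 without any other array. At 1000 µg/ml Arc was 0.28 above untreated cells and not called. The other Rhoc probe set (0.91 ± 0.49) was not called at the step. Of 27 phagocytic and scavenger receptors, 2 rose and 2 fell; without 1000 µg/ml replicate 3, 1 rose and 0 fell, and without 500 µg/ml replicate 1, 1 rose and 1 fell. Olr1 and Clec4e, a lectin receptor (0.62), rose, while Tlr4, the receptor for endotoxin (-0.84), and Tlr7, which senses RNA (-0.46), fell. The other Clec4e probe set, at 0.39, was not called. Tlr4 read 7.22, 7.43 and 7.20 at 500 and 6.31, 6.75 and 6.26 at 1000 µg/ml (adjusted p = 0.00721; 0.0502 without 1000 µg/ml replicate 3), and its other probe set was not called, at -0.34.

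Of 24 genes of G protein and cyclic AMP signalling, 3 rose and 1 fell. Crem, a regulator of cyclic AMP responsive transcription, rose by 0.98 ± 0.16 (SE; limma adjusted p = 0.00326), with a dim probe set of opposite sign (-0.21), and Ccrl2, a chemokine-binding receptor, by 0.90 ± 0.13 (8.85e-04). Rgs1, which shuts off G proteins, rose by 0.50, and Calcrl fell. Of 28 short-lived transcription regulators, Sertad1 rose (0.80 ± 0.10, 2.51e-04) and Irf2 fell (-0.72 ± 0.17, 0.0409, lost without any 1 array). Among cell cycle genes few falls were called, and the counts depended on the processing. In the S phase list they were 2 of 26, Ccne2, a cyclin (-0.71), and Cdc6, which licenses replication (-0.57), and in the mitosis list 1 of 25, Cenpf (-0.42). The S phase count was 2 without 1000 µg/ml replicate 2, 0 without 500 µg/ml replicate 3 and 1 without any other array. The mitosis count was 1 without 1000 µg/ml replicate 2 and 0 otherwise. Quantile normalization gave 0 S phase falls and scaling to 1 SD 0 mitosis falls, while array weights also called 3 S phase rises and 1 mitosis rise. Of 18 inflammasome and cell death genes 1 rose, Bbc3, a call lost without any but 500 µg/ml replicate 2. Lysosome (26), interferon-stimulated (27), oxidative phosphorylation (29) and ribosomal protein (18) lists had 0 called, with medians between -0.076 and 0.057. Their members with the smallest p were Ctss, a lysosomal protease (-0.20), the chemokine Cxcl10 (0.79, adjusted p = 0.0787), Ndufb5 (-0.22) and Rpl14 (-0.23). The interferon-stimulated count depended on the processing. It was 1 rise after each of the 3 rescalings, 2 with the replicate block and 7 with array weights. Cxcl10 gained a call in 5 of 14 settings. The other lists kept 0 after the rescalings, while array weights called members of each.

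**Figure D3:**
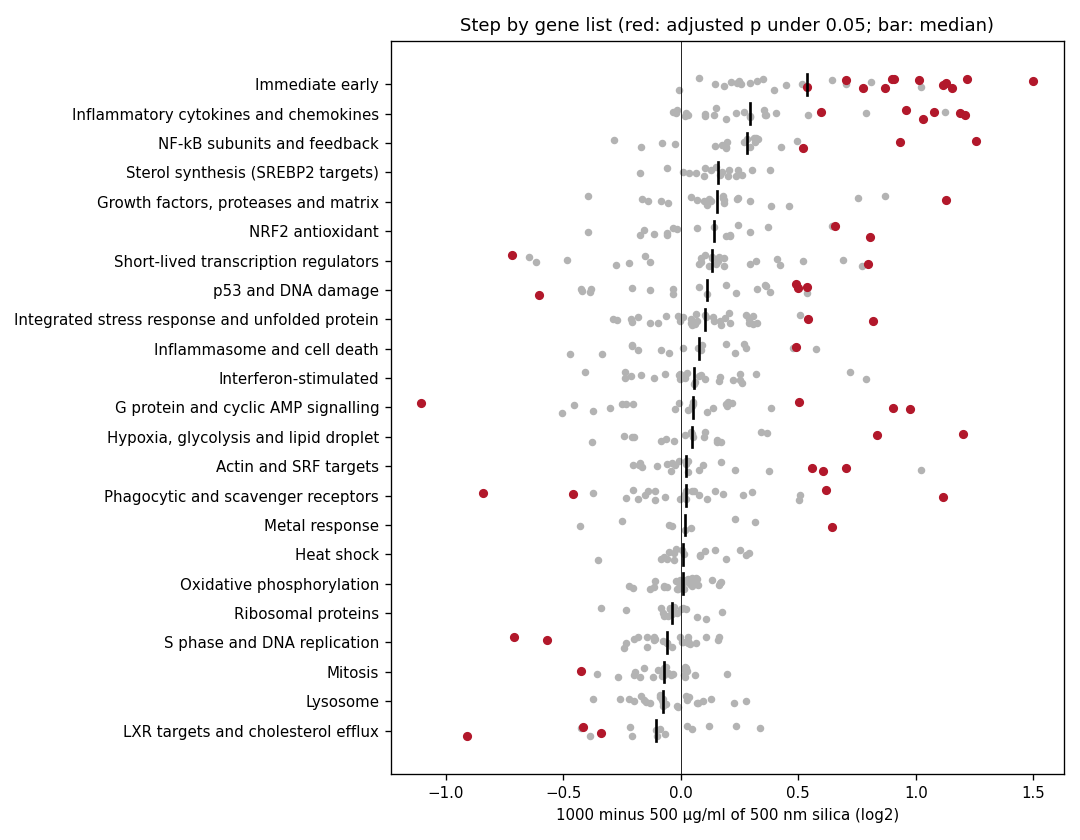
Step from 500 to 1000 µg/ml (log2, horizontal) of each measured member of 23 gene lists, 1 point a gene; red points had a limma adjusted p under 0.05 and black bars are list medians. The immediate early list had the highest median, 0.54, and the LXR list the lowest, -0.10.

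The lower doubling, from 250 to 500 µg/ml, had 63 rises (0.278% of probe sets) and 33 falls (0.146%). Of the 120 probe sets that rose at the top step, 112 had a positive difference at the lower one, with a median of 0.48, and of the 266 that fell 256 had a negative one, with a median of -0.21. Both doublings share the 500 µg/ml arrays. The difference between the doublings was itself called for 2 probe sets (0.00884%), both with a smaller top step (391 had an unadjusted p under 0.05). Cxcl2 rose by 3.05 ± 0.13 from 250 to 500 and by 1.21 ± 0.13 from 500 to 1000 µg/ml (difference -1.84 ± 0.22 SE, limma adjusted p = 0.00276). Dusp1 rose by 2.44 ± 0.09 and then by 1.22 ± 0.09 (difference -1.22 ± 0.16, adjusted p = 0.00703). After arrays were centred and scaled to 1 SD, 0 probe sets were called, and leaving out 1 of 9 arrays gave 0 to 2. For Gadd45b, Acod1 and Rel the top step was the larger by 0.44, 0.35 and 0.57, none of them called.

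The top step of the 10 nm particles, from 20 to 50 µg/ml or 2.5-fold, shares no array with that of the 500 nm particles. It had 0 called probe sets by limma (979 with an unadjusted p under 0.05). Of the 120 probe sets that rose with 500 nm silica, 53 had a positive 10 nm step, and the median was -0.028. Of the 266 that fell, 175 had a negative one, with a median of -0.065. The doses and the dose ratios differ between the sizes, so the steps are not matched in dose. The difference between the steps was called for 35 probe sets where the 500 nm step was higher (0.155%) and 23 where it was lower (0.102%). They included 34 of the 120 rises and 19 of the 266 falls. The rises and falls were chosen on the 500 nm step, which is part of this difference, so a larger share among them follows from the choice. Leaving out 1 of 12 arrays gave 24 to 41 higher and 8 to 25 lower.

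Acod1 read 8.51, 8.46 and 8.39 at 20 µg/ml and 8.47, 8.42 and 8.28 at 50 µg/ml of 10 nm silica, all below its arrays at 500 µg/ml of 500 nm silica, and the difference between the steps was 1.45 ± 0.14 (SE; limma adjusted p = 1.47e-04). Il1rn read 8.30, 8.45 and 8.65 and then 8.23, 8.001 and 8.22 with 10 nm silica (difference 1.56 ± 0.19, adjusted p = 6.78e-04). Slc7a11 was near its untreated level at 50 µg/ml of 10 nm silica (change -0.04) and 2.12 above it at 1000 µg/ml of 500 nm silica (difference of steps 1.19 ± 0.18, adjusted p = 0.00601). Egr2 and Olr1, which stood apart at 1000 µg/ml of 500 nm silica, were higher still with 10 nm silica. At 50 µg/ml Egr2 read 11.62, 11.76 and 11.89 and Olr1 6.48, 6.22 and 6.68. Slc40a1 went the other way: it stood 1.82 above untreated cells at 1000 µg/ml of 500 nm silica and -0.12 from them at 50 µg/ml of 10 nm silica. Of the 120 rises, 96 were called higher than untreated cells at 50 µg/ml of 10 nm silica (background 6.5%), and of the 266 falls 208 were called lower and 1 higher (background 11.1% lower). These comparisons share the untreated arrays with those of the 500 nm doses.

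**Figure D4:**
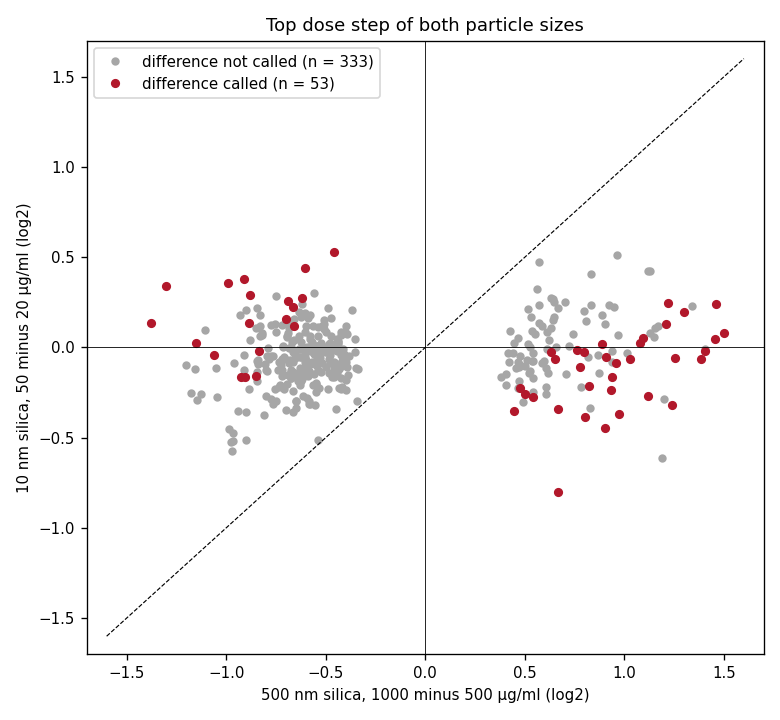
Top step of 500 nm silica (horizontal, 1000 minus 500 µg/ml) and of 10 nm silica (vertical, 50 minus 20 µg/ml), log2, for the 386 probe sets called at the 500 nm step; the dashed line marks equal steps. The 53 red points had a called difference between the steps. The 10 nm step was positive for 53 of the 120 rises and negative for 175 of the 266 falls.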

How the data were processed

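Gene expression was measured on 21 arrays. The deposited values are on a log10 scale and were made with RMA (version not given), per the submitters' processing notes; base 10 was inferred from their range, 0.641 to 4.34. They were multiplied by 3.32 to give log2 values. Of 22690 probe sets, 64 were controls. Of the other 22626, 20380 had 1 gene symbol in the platform annotation, 691 several and 1555 none. Gene IDs of 20351 of the former were found in the GRCm38.p6 table. Each of 12393 genes was represented in lists by its probe set with the highest mean.

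Groups came from the sample titles. Contrasts were tested in R 4.3.3 by limma (version 3.58.1; lmFit, eBayes), with group as the only factor over all 21 arrays, two-sided, with Benjamini-Hochberg adjustment over all probe sets (residual degrees of freedom 14, prior 4.02). The median SE of the step was 0.152 and the median half-width of its 95% interval 0.320. The number of arrays limits the precision. The script was tested on simulated data. Figures used matplotlib 3.10.9. Genes named were the 12 largest rises and 12 largest falls whose arrays did not overlap between the doses, 6 of each class and direction, and 3 of each list called (or the smallest p), each with 1 symbol; others, such as further list members that make up a count or illustrate a list, were chosen after their values were seen. The comparison, lists and rules were chosen with earlier results of these data known. Alternatives were a replicate block, 3 rescalings, array weights, a filter on dim probe sets, 1 probe set a gene, only the groups compared, and leaving out each array.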

Additional observations from a re-analysis of the deposited data

Results flagged for a closer look

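For 23 of the 78 probe sets named, the step of 500 nm silica differed from the top step of 10 nm silica by a test of the difference itself (limma, adjusted over all probe sets). Of all 22626 probe sets 58 had a called difference. Most of the named probe sets were chosen for a large 500 nm step, which is part of the difference, so their larger share follows from the choice. Dose and particle size cannot be told apart. The values are log2 steps of 500 nm minus 10 nm silica, and the dose ratios of the steps were 2 and 2.5. Among cytokines, chemokines and their antagonists and receptors they were 1.56 for Il1rn, 1.093 for Ccl4, 1.082 for Cxcl2, 1.053 for Csf1 and 1.349 for Ccrl2. Among transcription regulators and NF-kB genes they were 1.313 for Rel, 1.387 for Maff, 1.344 for Crem, 0.8237 for Sertad1 and 1.171 for Traf1. Among signalling, stress and metabolic genes they were 1.421 for Gadd45b, 0.9732 for Dusp1, 1.45 for Acod1, 1.193 for Slc7a11, 0.7562 for Mdm2 and 1.422 for H1f2. The falls that were larger with 500 nm silica gave -0.6881 for Plxnc1, -1.018 for Dnajc3, -1.173 for Clcc1, -1.176 for Calhm2, -1.291 for Nisch, -1.51 for Qser1 and -1.64 for Sesn1. Maff, Il1rn, Ccrl2, Crem and Slc7a11 had a negative 10 nm step beside a positive 500 nm step, at -0.27, -0.32, -0.44, -0.37 and -0.39, none of them called.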

How the results depend on the processing

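No result of the 78 named probe sets reversed: of 1077 values under other settings, 868 kept their side of the threshold, 193 lost the call and 16 gained it. With the replicate number as a block, 301 probe sets rose and 591 fell (43 rises at least 2-fold), all 386 calls of the fit without it remained, 101 higher responders grew, and 17 higher and 5 lower ones had a bounded step; the lower doubling gave 102 and 55 and the difference from the 10 nm step 118 and 87. The labels give no pairing, so the main fit did not take the numbers as pairs. Deviations of same-numbered 500 and 1000 µg/ml arrays correlated at 0.0422, 0.784 and 0.682 for replicates 1, 2 and 3. Those of untreated arrays correlated at -0.326, 0.556 and 0.551 with 500 and at 0.0136, 0.561 and 0.629 with 1000 µg/ml. Arrays numbered 2 and 3 thus shared part of their spread across doses, which the main fit leaves in the error, and the reason was not tested. Of the 386 calls, 278 remained after quantile normalization, 287 after centring and 262 after scaling.

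Quantile normalization gave 26 growing and 1 bounded lower responders, 0 and 2 responses at 1000 µg/ml only, and 63 probe sets above the 10 nm step. Median centring gave 167 falls, 25 growing lower responders, and 4 and 2 responses at 1000 µg/ml only. Scaling to 1 SD gave 185 rises, 146 falls, 23 growing lower responders, 4 and 2 responses at 1000 µg/ml only, 0 differences between doublings and 70 probe sets above the 10 nm step. Array weights gave 2464 rises and 2802 falls (66 rises at least 2-fold), 135 growing, 3 receding and 14 bounded higher responders, 2 receding and 13 bounded lower ones, 6 and 9 responses at 1000 µg/ml only, 273 and 245 for the lower doubling, 224 differences between doublings, and 1638 and 1726 from the 10 nm step. With 1 probe set a gene there were 154 falls (5 at least 2-fold), 83 higher responders (4 bounded), 44 lower (22 growing, 0 bounded), 1 fall at 1000 µg/ml only, 8 falls at the lower doubling and 9 below the 10 nm step. Fitting only the groups compared gave 29 rises and 19 falls, of which 47 were among the 386, 27 growing and 4 bounded higher responders, 5 growing lower ones, 0 and 1 responses at 1000 µg/ml only, 1 difference between doublings, and 10 and 3 from the 10 nm step. Here the spread rests on fewer arrays; the cause of the other shifts was not tested. A bound of 1 gave 50 and 37 bounded responders and 28 and 84 responses at 1000 µg/ml only. With no size bound there were 634 higher responders (109 growing, 236 bounded), 1686 lower (239 growing, 550 bounded), and 25 and 87 responses at 1000 µg/ml only.

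Leaving out each array gave 57 to 109 rises and 78 to 180 falls (20 to 30 and 9 to 22 at least 2-fold), 136 to 156 higher responders (38 to 68 growing, 0 receding, 5 to 13 bounded), 70 to 167 lower (17 to 54 growing, 0 receding, 1 to 6 bounded), 0 to 3 and 1 to 6 responses at 1000 µg/ml only, 34 to 47 and 13 to 17 for the lower doubling, 0 to 2 differences between doublings, and 24 to 41 and 8 to 25 from the 10 nm step. Without the dimmest 25% of probe sets there were 128 rises and 294 falls. Counts of list members were added after the data were seen. With 3 arrays a group, steps under about 0.3 mostly had an interval that included 0, and dim probe sets such as Olr1 carry less signal over background.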
